A study of Canis lupus familiaris with 5 samples.

Results

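Branched-chain amino acid catabolism was represented by 6 genes, BCAT1, BCAT2, BCKDHA, BCKDHB, DBT and SLC7A5, chosen by name and with earlier results of these data known. All 6 of the listed genes were found among the 35120 distinct gene names of the deposited feature tables, each as 1 feature. Because the genes were picked partly for how they differed between these libraries, their own values are given as a description, without a test.

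The nuclei came from cephalic vein of mongrel dogs 1 and 2, operated under general anesthesia, and every piece of tissue was snap-frozen before nuclei were isolated for droplet single-nucleus RNA sequencing. The grafted group was 1 library, from dog 1, of vein that had been distended, sewn into the carotid artery after systemic bivalirudin, and taken back at 24 h. The distended group was 2 libraries, from dogs 1 and 2, of vein filled with 0.9% saline holding 60 mg papaverine hydrochloride and 43 mg bivalirudin, in a harvest that took about 30 min. The control group was 2 libraries, from the same 2 dogs, of a separate segment that was not distended. The age and the sex of each dog are not given in the sources used here. With a lone graft, every grafted value rests on 1 animal, and its spread was assumed to be that of the other groups.

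Leucine, isoleucine and valine enter cells through an exchanger made of SLC7A5 and its partner chain SLC3A2, which lets a large neutral amino acid in as another, often glutamine, goes out. A transaminase, BCAT1 in the cytosol or BCAT2 in mitochondria, then moves the amino group to 2-oxoglutarate, which yields glutamate and a branched-chain keto acid. The keto acid is oxidised in mitochondria by the branched-chain keto acid dehydrogenase complex. BCKDHA and BCKDHB are the alpha and beta subunits of its decarboxylase, DBT is its transacylase core and DLD its dihydrolipoyl dehydrogenase, while the kinase BCKDK switches it off and the phosphatase PPM1K switches it on. In most adult tissues BCAT2 is the widespread transaminase, while BCAT1 is known chiefly from embryonic tissue, brain and many tumours.

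The libraries differed in depth and content before any of these genes was read. The graft held 11302558 UMIs (unique molecular identifiers, each a counted transcript), the distended libraries 2667701 and 410604, and the controls 2337436 and 1305862. After filtering, 2705 nuclei remained in the graft, 2108 and 241 in the distended libraries, and 765 and 1036 in the controls. The 4 features LOC119877772 to LOC119877775 took 2.98% of the UMIs in the graft, 38.5% and 26.5% in the distended libraries, and 70.4% and 61.4% in the controls. Outside them, a median nucleus held 2350 UMIs in the graft, 545.5 and 498 in the distended libraries, and 424 and 274 in the controls. Depth and these features thus moved with the groups in the same order as BCAT1 and SLC7A5 below, and their part in those differences was not tested. Between 0 and 3 barcodes were shared by any pair of libraries. Intervals below cover counting error only, and p-values measure the spread between these few libraries.

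BCAT1, the cytosolic transaminase, had 3121 UMIs in the graft, against 54 in distended dog 1, 24 in distended dog 2, 0 in control dog 1 and 2 in control dog 2. Summed over all nuclei of a library (whole vein) and given as CPM (UMIs scaled to a common library size) after TMM, which sets libraries side by side by the bulk of their genes, this was 144 CPM in the graft, 20.1 and 43.1 CPM in the distended libraries, and 0 and 3.36 CPM in the controls. The graft stood highest, and both distended libraries stood between it and the controls. How many of all genes have groups set apart in this way was not counted, so nothing is read from the order alone. The test across all genes called 0.0% of the 13165 genes tested in each of the 3 comparisons. As a ratio of pooled, scaled counts, the distended libraries were 18.2-fold over the controls (exact 95% counting interval 4.86 to 153), which rests on 2 control UMIs. The graft was 108-fold over the controls (30.0 to 895) and 5.97-fold over the distended libraries (4.77 to 7.57). Single libraries moved these sizes but not their direction: the ratio of distended to control was 32.5 without distended dog 1 and 7.18 without control dog 1, and at least 7.32 without control dog 2, where no control UMI remained. For the graft against the controls, 42.8 remained without control dog 1 and at least 43.7 without control dog 2, and against the distended libraries 3.33 remained without distended dog 1. Fitted log2 fold changes of BCAT1 were 4.42 (SE 1.18) for distended against control, 6.64 (SE 1.26) for grafted against control and 2.22 (SE 0.98) for grafted against distended. In whole-vein sums fewer cells of a type and less RNA per cell cannot be told apart.

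SLC7A5, the transport chain of the leucine exchanger, had 527 UMIs in the graft, 7 and 4 in the distended libraries and 0 in both controls. The scaled levels were 24.3 CPM in the graft, 2.61 and 7.19 CPM in the distended libraries, and 0 CPM in the controls, so the order of the groups was that of BCAT1. Against a floor of 3 counts over the 2 controls, SLC7A5 was at least 12.2-fold higher in the graft (at least 4.82-fold without control dog 1 and 7.38-fold without control dog 2). The distended libraries were at least 1.71-fold higher than the controls, a bound of 0.675 without control dog 1, so that no difference is shown there. The graft was 7.14-fold over the distended libraries (3.96 to 14.4), and 3.38-fold without distended dog 1. SLC3A2, the chain that carries SLC7A5 to the cell surface, did not follow it. It had 4.37 CPM in the graft, 12.3 and 10.8 CPM in the distended libraries, and 6.58 and 8.39 CPM in the controls, a fitted log2 fold change of -0.76 (SE 1.09) for grafted against control.

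**Figure D1:**
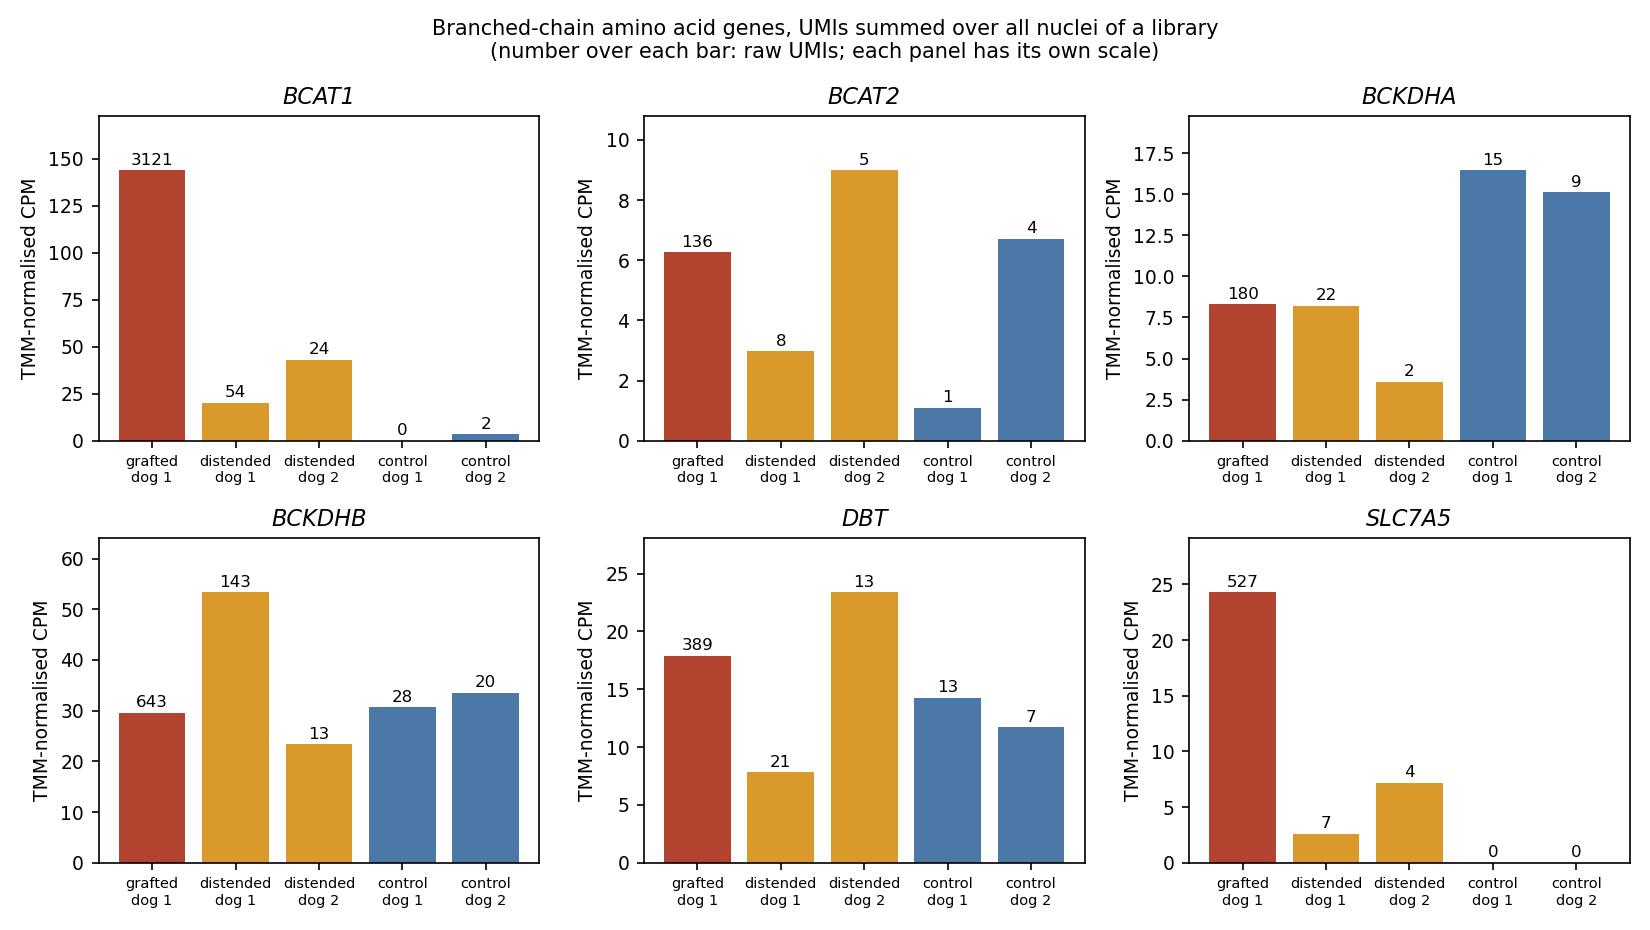
Level of each of the 6 genes in the 5 libraries, as TMM-normalised CPM from UMIs summed over all nuclei (y axis, from 0, a separate scale in each panel); the number over a bar is the raw UMI count, and each bar is 1 library. BCAT1 and SLC7A5 were highest in the graft, at 144 and 24.3 CPM, and lowest in the controls, while BCKDHA was highest in the controls, at 16.5 and 15.1 CPM.

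The mitochondrial transaminase BCAT2 was sparse everywhere, with 136 UMIs in the graft, 8 and 5 in the distended libraries, and 1 and 4 in the controls. Its scaled levels were 6.26 CPM in the graft, 2.98 and 8.99 CPM in the distended libraries, and 1.10 and 6.71 CPM in the controls, and all 3 groups overlapped. The pooled ratio of BCAT2 in the graft to that in the controls was 1.89 (0.790 to 5.91), and without control dog 2 it was 5.71 (1.01 to 227). BCAT2 shares part of its position with LOC102157107 in the RefSeq annotation, and since the counting's use of strand is unknown, its counts are uncertain by that much.

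Among the subunits of the dehydrogenase complex, BCKDHA was the one with lower levels in the graft and both distended libraries than in either control. This alpha subunit had 180 UMIs in the graft, 22 and 2 in the distended libraries, and 15 and 9 in the controls. After scaling the level was 8.29 CPM in the graft, 8.20 and 3.60 CPM in the distended libraries, and 16.5 and 15.1 CPM in the controls. Both controls thus stood above the graft and above both distended libraries, and how many of all genes do so was not counted. Pooled ratios to the controls were 0.521 (0.339 to 0.834) for the graft and 0.466 (0.253 to 0.856) for the distended libraries. Without distended dog 1, which leaves 2 distended UMIs, the distended ratio was 0.226.

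The beta subunit BCKDHB had 643 UMIs in the graft, 143 and 13 in the distended libraries, and 28 and 20 in the controls. Its scaled levels were 29.6 CPM in the graft, 53.3 and 23.4 CPM in the distended libraries, and 30.7 and 33.6 CPM in the controls. The graft lay just under the controls, and the 2 distended libraries fell on either side of them. The ratio of the graft to the controls was 0.930 (0.693 to 1.28), and that of the distended libraries to the controls was 1.51 (1.09 to 2.14), or 0.734 without distended dog 1. DBT, the transacylase core, had 389 UMIs in the graft, 21 and 13 in the distended libraries, and 13 and 7 in the controls. At 17.9 CPM in the graft, 7.83 and 23.4 CPM in the distended libraries, and 14.3 and 11.7 CPM in the controls, DBT showed no separation of distended from control libraries. Its ratio of graft to controls was 1.35 (0.862 to 2.24). DBT overlaps RTCA in the RefSeq annotation, so part of its counts could belong to that gene.

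The remaining parts of the complex were not among the 6 genes and were read as its direct partners. DLD, the dehydrogenase subunit shared with other keto acid complexes, had 22.0 CPM in the graft, 13.8 and 28.8 CPM in the distended libraries, and 19.7 and 1.68 CPM in the controls. BCKDK, the inactivating kinase, had 522 UMIs in the graft, 5 and 15 in the distended libraries, and 2 and 0 in the controls, which gave 24.0 CPM, then 1.86 and 27.0 CPM, then 2.19 and 0 CPM. The pooled ratio of BCKDK in the graft to the controls was 18.1 (4.99 to 150), on 2 control UMIs, at least 4.78 without control dog 1 and 10.96 without control dog 2. PPM1K, the activating phosphatase, had 86.8 CPM in the graft, 14.5 and 53.9 CPM in the distended libraries, and 43.9 and 18.5 CPM in the controls. Kinase and phosphatase were thus both higher in the graft than in either control, and neither passed the test (fitted log2 fold change 4.22, SE 1.68, and 1.46, SE 0.95; edgeR quasi-likelihood test, Benjamini-Hochberg adjusted p = 0.561 and 0.619).

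In whole-vein sums 0 of 6 branched-chain genes passed the edgeR quasi-likelihood test in any of the 3 comparisons, the same as the 0.0% of all genes. At an unadjusted p under 0.05 the edgeR test held 186 genes for distended against control, 1160 for grafted against control and 724 for grafted against distended. DESeq2 called 1, 115 and 30 genes in the same order. The median fitted log2 fold change over all tested genes was 0.08 for distended against control, 0.12 for grafted against control and 0.01 for grafted against distended.

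The share of nuclei with at least 1 UMI followed the levels of BCAT1 and SLC7A5 and also the depth. BCAT1 was seen in 1158 of 2705 graft nuclei (42.8%, exact binomial interval 40.9% to 44.7%), in 45 of 2108 (2.14%) and 14 of 241 (5.81%) distended nuclei, and in 0 of 765 and 2 of 1036 (0.193%) control nuclei. A count of 0 of 765 allows a share of up to 0.392%. With every nucleus thinned to 500 UMIs outside the dominant features, and shallower nuclei left out, BCAT1 was seen in 331 of 2677 graft nuclei (12.4%), in 23 of 1211 (1.90%) and 5 of 120 (4.17%) distended nuclei, and in 0 of 296 and 0 of 119 control nuclei, where 0 allows up to 1.01% and 2.52%. At equal depth, then, the graft share stayed above those of the 4 other libraries, while the share of distended dog 2 and the limit of control dog 2 lay close together. Thinned to 200 UMIs, the graft share was 5.51%, and the distended shares were 0.489% and 0.418%, about the limits of 0.457% and 0.401% that 0 allows in the controls.

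SLC7A5 was seen in 14.5% of graft nuclei, in 0.332% and 1.66% of distended nuclei, and in no control nucleus. Thinned to 500 UMIs these shares were 3.70% in the graft, and 0.165% and 0.833% in the distended libraries, again with no positive control nucleus. The distended shares are below the limit that 0 allows in the controls at this depth, so a difference between distended and control vein was not detectable for SLC7A5. Of the BCAT1-positive graft nuclei, 636 held at least 2 BCAT1 UMIs, 162 held at least 5 and the highest held 33, while both positive control nuclei held 1. Shares for the other genes in the graft were 3.62% for BCAT2, 4.69% for BCKDHA, 15.5% for BCKDHB and 11.3% for DBT. In the controls those shares were 0.131% and 0.386% for BCAT2, 1.70% and 0.869% for BCKDHA, 3.40% and 1.93% for BCKDHB, and 1.44% and 0.676% for DBT.

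**Figure D2:**
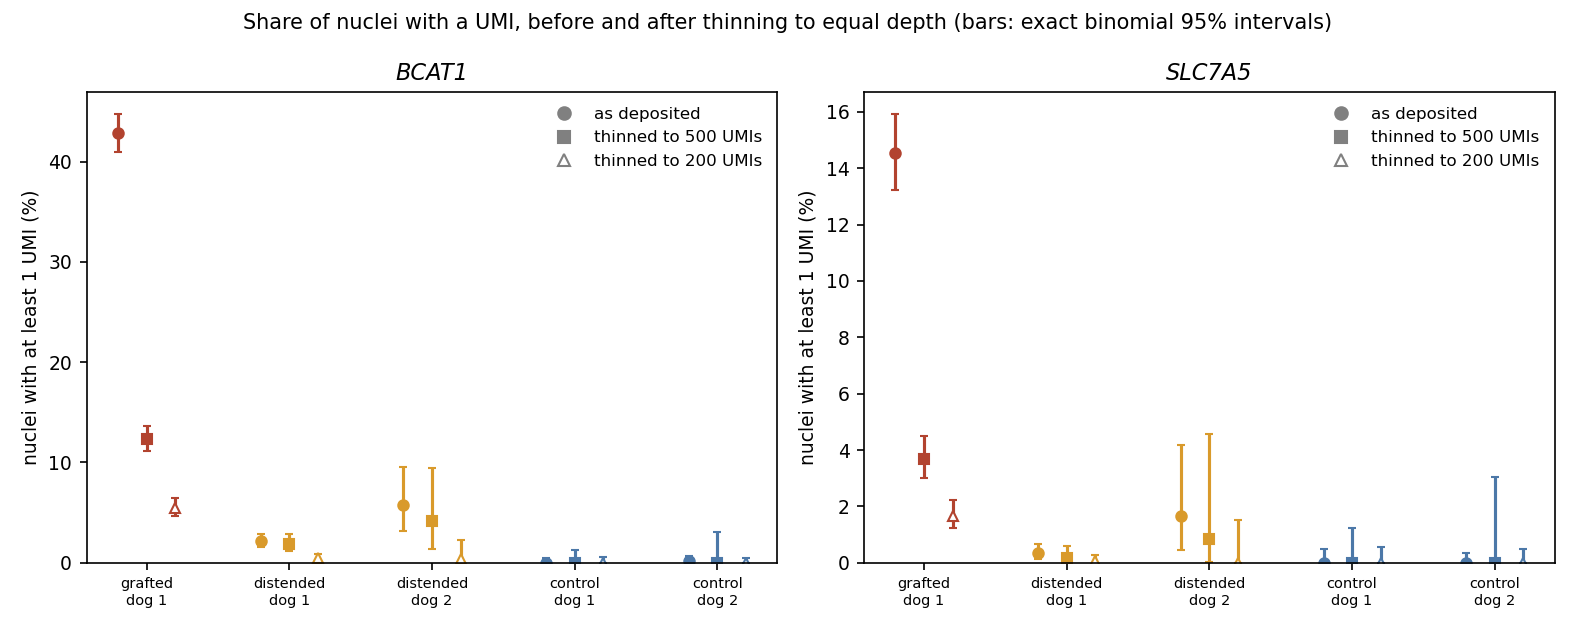
Share of nuclei with at least 1 UMI of BCAT1 (left) and SLC7A5 (right) in each library, in percent, as deposited and after thinning every nucleus to 500 or 200 UMIs; bars are exact binomial 95% intervals and cover counting error only. Thinning lowered the BCAT1 share of the graft to 12.4% and 5.51%, against 42.8% as deposited, and left 0 positive nuclei in both controls.

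Cell classes were named from fixed marker lists. A cluster whose leading genes did not hold its own markers, or whose best lists tied, was left unnamed. Levels within classes and clusters are given as class CPM, which scales to the UMIs of those nuclei outside the 4 dominant features and uses no TMM. Endothelial-like nuclei numbered 1095 in the graft, 622 and 171 in the distended libraries, and 665 and 556 in the controls, with different clusters behind them: clusters 1 and 9 in the graft, and clusters 2, 4, 6 and 15 in most distended and control nuclei. All 14 endothelial markers were detected in the class in all 5 libraries, and summed to 7257 class CPM in the graft, 13160 and 7690 in the distended libraries, and 12870 and 11660 in the controls. The lower marker level of the graft moved with the results below, and its part in them was not tested. BCAT1 in endothelial-like nuclei had 1423 UMIs in the graft, 6 and 13 in the distended libraries and 0 in both controls, or 324 class CPM in the graft, 10.8 and 87.6 class CPM in the distended libraries and 0 in the controls. The order of the groups in endothelial-like nuclei was thus the same as in whole vein, with distended dog 2 well above distended dog 1. Against the floor of 3 counts over the controls, BCAT1 was at least 62.0-fold higher in the graft (at least 18.2-fold without control dog 1) and at least 5.47-fold higher in the distended libraries (1.61-fold without control dog 1, 2.29-fold without distended dog 2). The graft was 11.3-fold over the distended libraries (7.24 to 18.9), with 4.10 without distended dog 1 and 27.0 without distended dog 2.

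The clusters behind the class differed in BCAT1. In cluster 9, BCAT1 stood at 250 class CPM in the graft (344 nuclei) and at 134 class CPM in distended dog 2 (23 nuclei, 7 UMIs). Distended dog 1 had 5 nuclei in cluster 9 and control dog 2 had 1, too few for a level. In cluster 2, BCAT1 stood at 22.9 and 71.5 class CPM in the distended libraries and at 0 in 345 and 144 control nuclei. In the other endothelial clusters distended dog 1 was at or near the controls: BCAT1 had 0 UMIs in its 125 nuclei of cluster 4 and its 36 of cluster 15, and 1 UMI in its 320 of cluster 6, against 0 in the control nuclei of all 3 clusters. Distended dog 2 had 1 BCAT1 UMI in 28 nuclei of cluster 4. Of the 4 members tested in endothelial-like sums, BCAT1 passed the edgeR test for grafted against control, beside 1.37% of the 10826 genes tested; since BCAT1 was chosen with this difference known, nothing is read from that call. No gene, BCAT1 included, passed there when either control library was left out, with coarser clusters (Leiden resolution 0.4), or with clusters classed by their marker count alone. With clusters made without the 4 dominant features, too few graft nuclei were classed as endothelial-like for a fit. Of the graft nuclei, 1073 then fell in a single unnamed cluster. Distended dog 2 then had 63 endothelial-like nuclei, against 171. The graft values of this class thus depend on how clusters were made. For grafted against distended 0 of the 4 passed beside 0.305%, and for distended against control 0 of the 4 beside 0.0% (327 genes at an unadjusted p under 0.05 in edgeR, and 2 called by DESeq2).

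SLC7A5 in endothelial-like nuclei had 132 UMIs in the graft, 2 and 2 in the distended libraries and 0 in both controls. It was at least 5.76-fold higher in the graft than in the controls, or 1.69-fold without control dog 1. BCKDHA in this class kept the direction it had in whole vein, with 30 UMIs (6.84 class CPM) in the graft, 7 and 0 (12.5 and 0 class CPM) in the distended libraries, and 14 and 5 (30.7 and 25.2 class CPM) in the controls. Its pooled, scaled ratio to the controls was 0.207 (0.113 to 0.388) in the graft and 0.318 (0.113 to 0.790) in the distended libraries, so both dogs had less BCKDHA in distended than in control endothelial-like nuclei, on 7 and 0 distended UMIs. BCKDHB had 100 class CPM in the graft, 93.2 and 47.2 in the distended libraries, and 57.0 and 60.6 in the controls. PPM1K had 325 class CPM in the graft, 30.5 and 169 in the distended libraries, and 87.7 and 35.3 in the controls, where distended dog 2 also stood above both controls.

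Fibroblast-like nuclei gave a smaller view, since the graft held only 6 of them and was not fitted there. BCAT1 had 38 and 0 UMIs in fibroblast-like nuclei of the distended libraries (1218 and 22 nuclei) and 0 and 2 in those of the controls (51 and 400 nuclei), a ratio of 2.87 (0.742 to 24.6) that the counts do not separate from 1-fold. In distended dog 1 most of the 54 BCAT1 UMIs therefore lay in fibroblast-like and not in endothelial-like nuclei, whereas in distended dog 2 13 of 24 lay in endothelial-like nuclei. No member passed the low-count filter in this class, where 0.0% of 2283 genes were called (59 at an unadjusted p under 0.05 in edgeR, 0 called by DESeq2). Smooth muscle-like nuclei, 40 in distended dog 1 and 37 in control dog 1, held 0 BCAT1 UMIs, which allows shares of up to 7.50% and 8.11%.

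Within the graft, BCAT1 and SLC7A5 were both found in every class or cluster listed here, and SLC7A5 was less evenly spread. BCAT1 stood at 324 class CPM in endothelial-like nuclei (308 to 342), 302 in cluster 0 (276 to 329), 293 in neutrophil-like nuclei (261 to 329), 248 in cluster 10 (232 to 266) and 159 in cluster 8 (125 to 199). In cluster 16 BCAT1 stood at 88.1 class CPM. The intervals of the highest 3 overlap. Cluster 0 carried 11 of 14 fibroblast markers, and cluster 8 carried 11 of 12 neutrophil markers. Cluster 10 carried 9 of 14 endothelial markers and was led by ribosomal protein genes. Cluster 16, of 36 graft nuclei, carried 10 of 11 smooth muscle markers. None of these clusters held its own markers among its leading 10 genes by Wilcoxon rank, so none was named. Ranked by fold, the leading 10 genes of cluster 16 held 2 smooth muscle markers, ACTA2 and MYOCD. SLC7A5 stood at 149 class CPM in cluster 0 (131 to 168), 85.5 in neutrophil-like nuclei (68.6 to 105), 30.1 in endothelial-like nuclei (25.2 to 35.7) and 10.8 in cluster 10 (7.49 to 15.0). In clusters 16 and 8 it stood at 44.0 and 41.8 class CPM. At an equal depth of 500 UMIs the BCAT1 share was 13.7% in endothelial-like nuclei and 12.6% in cluster 0, whereas the SLC7A5 share was 2.12% in endothelial-like nuclei and 7.15% in cluster 0.

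Markers of other classes were also present in these groups of nuclei. The 14 endothelial markers summed to 320 class CPM in cluster 0, 3446 in neutrophil-like nuclei, 3798 in cluster 10 and 7257 in endothelial-like nuclei of the graft. None of the 14 was at 0 in any of these groups. The 14 fibroblast markers summed to 3639 class CPM in cluster 0 and 664 in endothelial-like nuclei. In neutrophil-like nuclei the 12 neutrophil markers summed to 3231 class CPM, below the endothelial markers there. The BCAT1 and SLC7A5 levels of that class thus cannot be given to a single cell type. In cluster 8 the neutrophil markers summed to 4070 class CPM and the endothelial markers to 775.5. The part of RNA from other cells in the BCAT1 and SLC7A5 levels of each class was not tested.

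The 2 genes were also read together in single nuclei. In cluster 0, where both were frequent, 79 of 775 nuclei held both, and SLC7A5 was seen in 27.8% of BCAT1-positive and 22.4% of BCAT1-negative nuclei, which had median depths of 2274 and 1582 UMIs. In endothelial-like nuclei of the graft 61 of 1095 held both, with SLC7A5 in 11.2% of BCAT1-positive and 8.21% of BCAT1-negative nuclei at median depths of 4566 and 2562 UMIs. The deeper nuclei held both genes more often, and co-occurrence beyond depth was not tested.

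**Figure D3:**
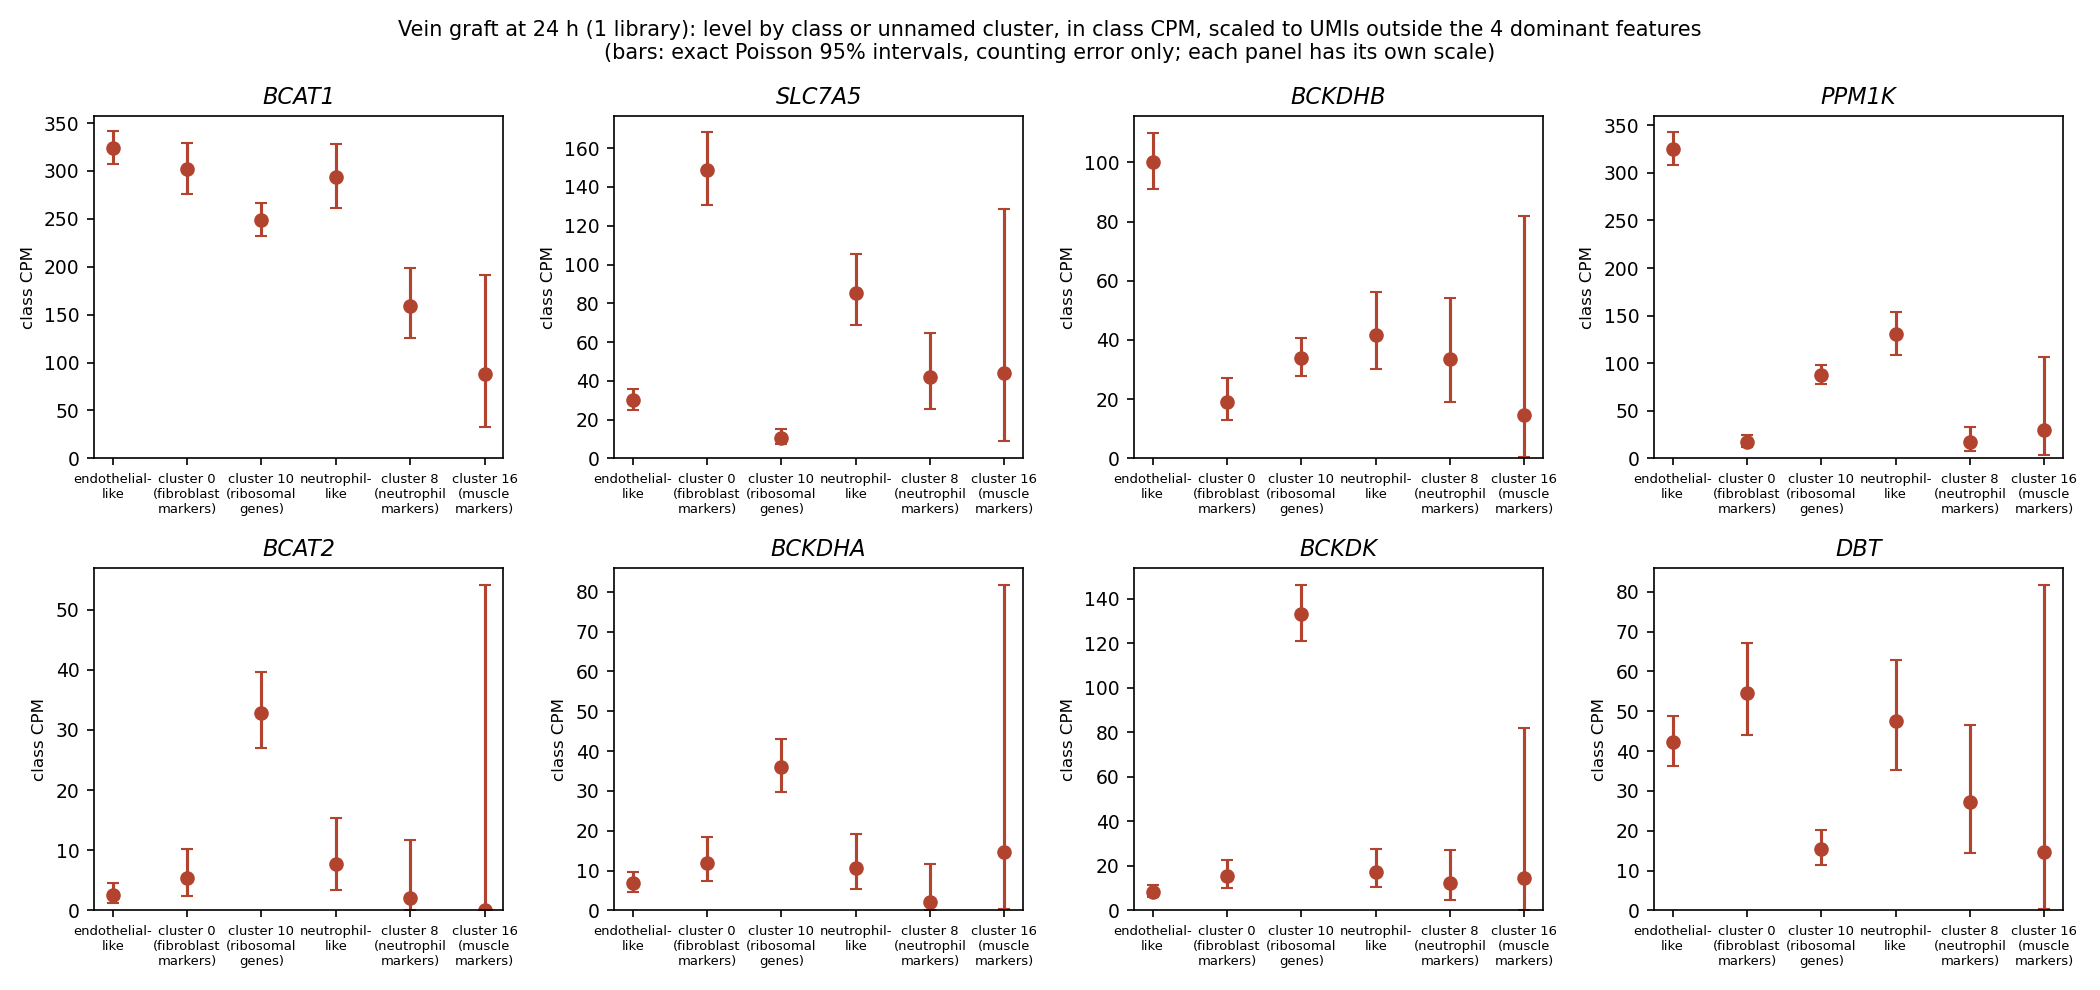
Level of 8 branched-chain genes in the vein graft by class or unnamed cluster, in class CPM, scaled to UMIs outside the 4 dominant features (y axis from 0, a separate scale in each panel); points are the 1 graft library and bars are exact Poisson 95% intervals. BCAT1 was close to even across endothelial-like nuclei, cluster 0 and neutrophil-like nuclei, BCKDHB and PPM1K peaked in endothelial-like nuclei at 100 and 325 class CPM, SLC7A5 peaked in cluster 0, and BCAT2, BCKDHA and BCKDK peaked in cluster 10.

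The complex and its regulators divided along the same clusters. BCKDHB was highest in endothelial-like nuclei at 100 class CPM (91.1 to 110) and lowest among the larger groups in cluster 0 at 19.2 class CPM (13.1 to 27.1). PPM1K, the phosphatase that activates the complex, behaved likewise, at 325 class CPM in endothelial-like nuclei (308 to 342) and 17.4 class CPM in cluster 0 (11.7 to 25.0). DBT differed from BCKDHB in this, with 42.2 class CPM in endothelial-like nuclei and 54.6 class CPM in cluster 0, whose intervals overlap. BCKDK, the kinase that inactivates the complex, was concentrated in cluster 10 at 133 class CPM (121 to 146), against 8.43 in endothelial-like nuclei and 15.6 in cluster 0.

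Cluster 10 held most of the graft UMIs of 3 genes. Its 251 graft nuclei were 9.28% of the nuclei of that library and 29.9% of the UMIs outside the dominant features, and ribosomal protein genes took 16.5% of their UMIs, against 0.657% in endothelial-like nuclei. Cluster 10 held 107 of the 136 graft UMIs of BCAT2 (78.7%), 117 of 180 of BCKDHA (65.0%) and 434 of 522 of BCKDK (83.1%), but 25.9% of those of BCAT1 and 6.64% of those of SLC7A5. Leaving those nuclei out took the graft level, on that scale over all graft nuclei, to 3.79 CPM for BCAT2, against 12.5 CPM with them. The same step took BCKDHA to 8.24 class CPM, against 16.5, and BCKDK to 11.5 class CPM, against 47.9. BCAT1 stood at 303 class CPM without the cluster and 286 with it, and SLC7A5 at 64.4 and 48.4 class CPM, so the high graft levels of these 2 were not set by it. In distended dog 2, 10 nuclei of cluster 10 held 11 of 24 BCAT1 UMIs, 5 of 5 of BCAT2 and 13 of 15 of BCKDK, and each control library held 1 such nucleus. What the ribosomal transcripts of this cluster stand for was not tested.

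**Figure D4:**
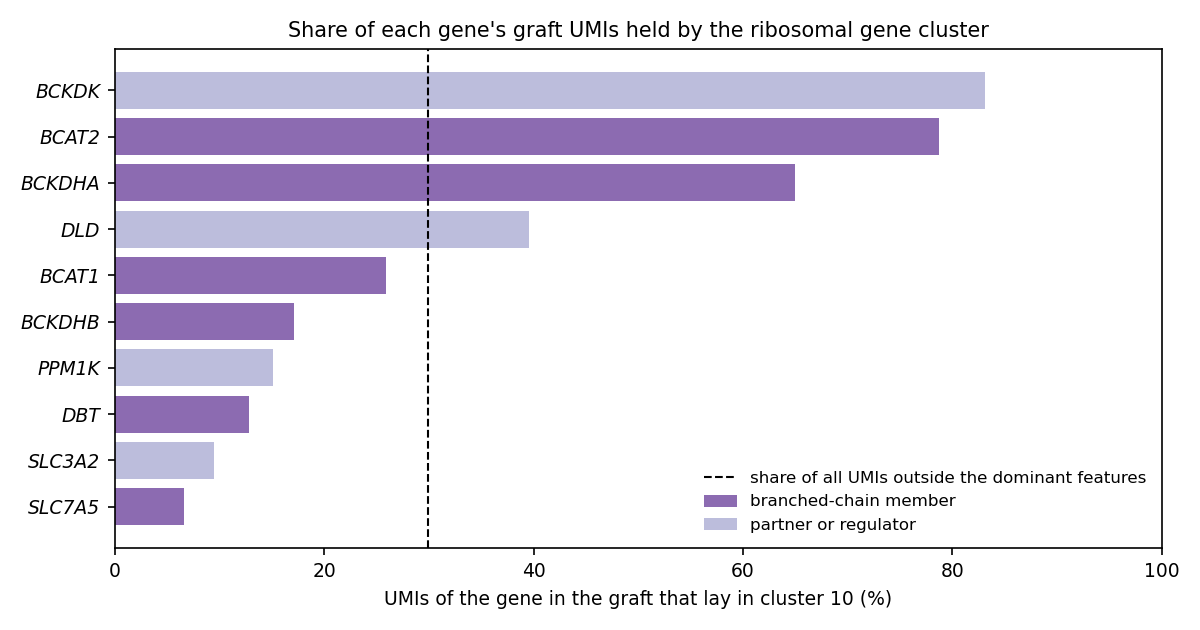
Share of each gene's graft UMIs that lay in cluster 10 (x axis, percent, 1 library), for the 6 branched-chain genes and 4 partners or regulators; the dashed line is that cluster's share of all UMIs outside the dominant features, 29.9%. BCKDK, BCAT2 and BCKDHA lay far above the line, at 83.1%, 78.7% and 65.0%, and BCAT1, at 25.9%, just below it.

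The genes around the 6 were read from 8 lists of the pathway and its surroundings, 92 genes in all, of which 85 passed the low-count filter in whole vein. In whole vein 0 of 85 passed the edgeR test in any of the 3 comparisons, and in endothelial-like sums 0 of 74. At an unadjusted p under 0.05 the edgeR test held 1, 7 and 0 of the 85 for distended against control, grafted against control and grafted against distended. Over all 13165 genes tested it held 186, 1160 and 724. Of the 74 in endothelial-like sums it held 3, 17 and 6, beside 327, 1876 and 1031 of all 10826 genes tested there. The counts changed when a distended library was left out. Without distended dog 1, 4 of 83 pathway genes passed for distended against control (BCKDK, PSAT1 and PYCR1 higher, DDIT4 lower) beside 1.80% of all genes, and 9 of 83 for grafted against control beside 5.34%, in whole vein. Without distended dog 2, 2 of 85 passed for grafted against control (PYCR1 and SLC43A2, both higher) beside 2.77% of all genes, and 1 of 85 for grafted against distended (PYCR1) beside 2.64%, which are shares near the background. In endothelial-like sums 7 of 73 passed for grafted against control when distended dog 1 was left out, beside 7.50% of all genes, and 7 of 77 when it was distended dog 2, beside 7.04%, so these shares too were near the background. In those sums 1, the cystine carrier SLC7A11, passed for grafted against control with the dog as a block, beside 1.05% of all genes. The median fitted log2 fold change of all 85 was 0.16 for distended against control, 0.19 for grafted against control and 0.12 for grafted against distended, beside the 0.08, 0.12 and 0.01 of all genes. For the 6 members the same medians were 0.42, 0.62 and 0.33.

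Downstream of the complex, the 7 genes of the leucine branch had median log2 fold changes of -0.11 for distended against control and 0.19 for grafted against control, with 3 of 7 and 4 of 7 above 0. IVD, which oxidises isovaleryl-CoA at the head of that branch, had 3.41 CPM in the graft, 2.61 and 5.39 CPM in the distended libraries, and 8.77 and 20.1 CPM in the controls. Both controls lay above the graft and the distended libraries, as with BCKDHA, and how many of all genes do so was not counted. The log2 fold change of IVD for distended against control was -1.97 (SE 1.08), which did not pass (edgeR quasi-likelihood test, adjusted p = 1). The 12 tested genes of the valine and isoleucine branches had medians of 0.19 for distended against control and 0.55 for grafted against control, with 9 of 12 and 7 of 12 above 0. The 6 glutamate and transamination partners had medians of -0.08 and -0.09 in the same 2 comparisons.

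Other carriers of large neutral amino acids had a median of 0.65 for distended against control and -0.07 for grafted against control (9 tested). SLC1A5, a glutamine carrier, had 17.5 CPM in the graft, 2.98 and 10.8 CPM in the distended libraries, and 1.10 and 0 CPM in the controls. SLC7A6, which exchanges cationic for neutral amino acids, had 10.6 CPM in the graft, 5.22 and 12.6 CPM in the distended libraries, and 1.10 and 0 CPM in the controls. SLC43A2, a carrier of large neutral amino acids without a partner chain, had 33.4 CPM in the graft, 4.85 and 12.6 CPM in the distended libraries, and 0 and 3.36 CPM in the controls. SLC1A5 and SLC43A2 shared the order of groups seen for SLC7A5, whereas SLC7A6 in the graft lay between the 2 distended libraries; the controls held 1 or 2 UMIs of each carrier. The pooled ratios of graft to controls were 26.3 (4.70 to 1042) for SLC1A5 and 25.2 (6.94 to 208) for SLC43A2. That of SLC1A5 was at least 3.47 without control dog 1 and 15.9 without control dog 2. That of SLC43A2 was 9.95 without control dog 1 and at least 10.2 without control dog 2. SLC43A1, its close relative, had 3.64 CPM in the graft, 39.5 and 10.8 CPM in the distended libraries, and 2.19 and 31.9 CPM in the controls, and its distended and control libraries overlapped.

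The amino acid stress response is a set induced when amino acids or their charged tRNAs run low. In whole vein its 17 tested genes had median log2 fold changes of 0.94 for distended against control and 1.60 for grafted against control. With genes at 0 in the controls set at their bound, the medians were 0.63 and 1.59. Of the 17, 11 and 12 lay above 0. In endothelial-like sums the medians of the 15 tested genes were -0.31 and 0.59 in the same order. There 6 and 8 genes lay above 0, and 9 and 7 below. PYCR1, an enzyme of proline synthesis, had 26.8 CPM in the graft, 0.373 and 28.8 CPM in the distended libraries, and 1.10 and 0 CPM in the controls, so that its high distended value came from dog 2 (fitted log2 fold change for distended against control 4.28, or -0.77 without that library). Its fitted log2 fold change for grafted against control was 5.32 (SE 2.11, edgeR adjusted p = 0.561). PSAT1, of serine synthesis, had 281 UMIs in the graft, 0 and 10 in the distended libraries and 0 in both controls, at least 6.50-fold higher in the graft than in the controls (at least 2.57-fold without control dog 1 and 3.93-fold without control dog 2). TRIB3, a pseudokinase of the stress response, was likewise at 0 in both controls and had 107 UMIs in the graft, at least 2.48-fold higher, but the bound was 0.979 without control dog 1 and 1.498 without control dog 2, so that no difference is shown without control dog 1. ASNS, which makes asparagine, had 13.8 CPM in the graft, 3.73 and 1.80 CPM in the distended libraries, and 1.10 and 0 CPM in the controls. CTH, of cysteine synthesis, had 9.72 CPM in the graft, 1.12 and 1.80 CPM in the distended libraries, and 3.29 and 1.68 CPM in the controls.

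Other genes of that list lay on the opposite side. DDIT4, an inhibitor of mTORC1 signalling, had 19.6 CPM in the graft, 61.9 and 3.60 CPM in the distended libraries, and 249 and 85.6 CPM in the controls, with a fitted log2 fold change of -3.09 (SE 1.45, edgeR adjusted p = 0.565) for grafted against control. ATF3, a stress-induced transcription factor, had 7.46 CPM in the graft, 41.4 and 27.0 CPM in the distended libraries, and 4.39 and 208 CPM in the controls, so its value below the controls rests on control dog 2: the log2 fold change for grafted against control was -3.82, and 0.79 without that library. Genes of the list thus stood on both sides of 0, with PYCR1, PSAT1 and ASNS above the controls in the graft and DDIT4 below them.

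**Figure D5:**
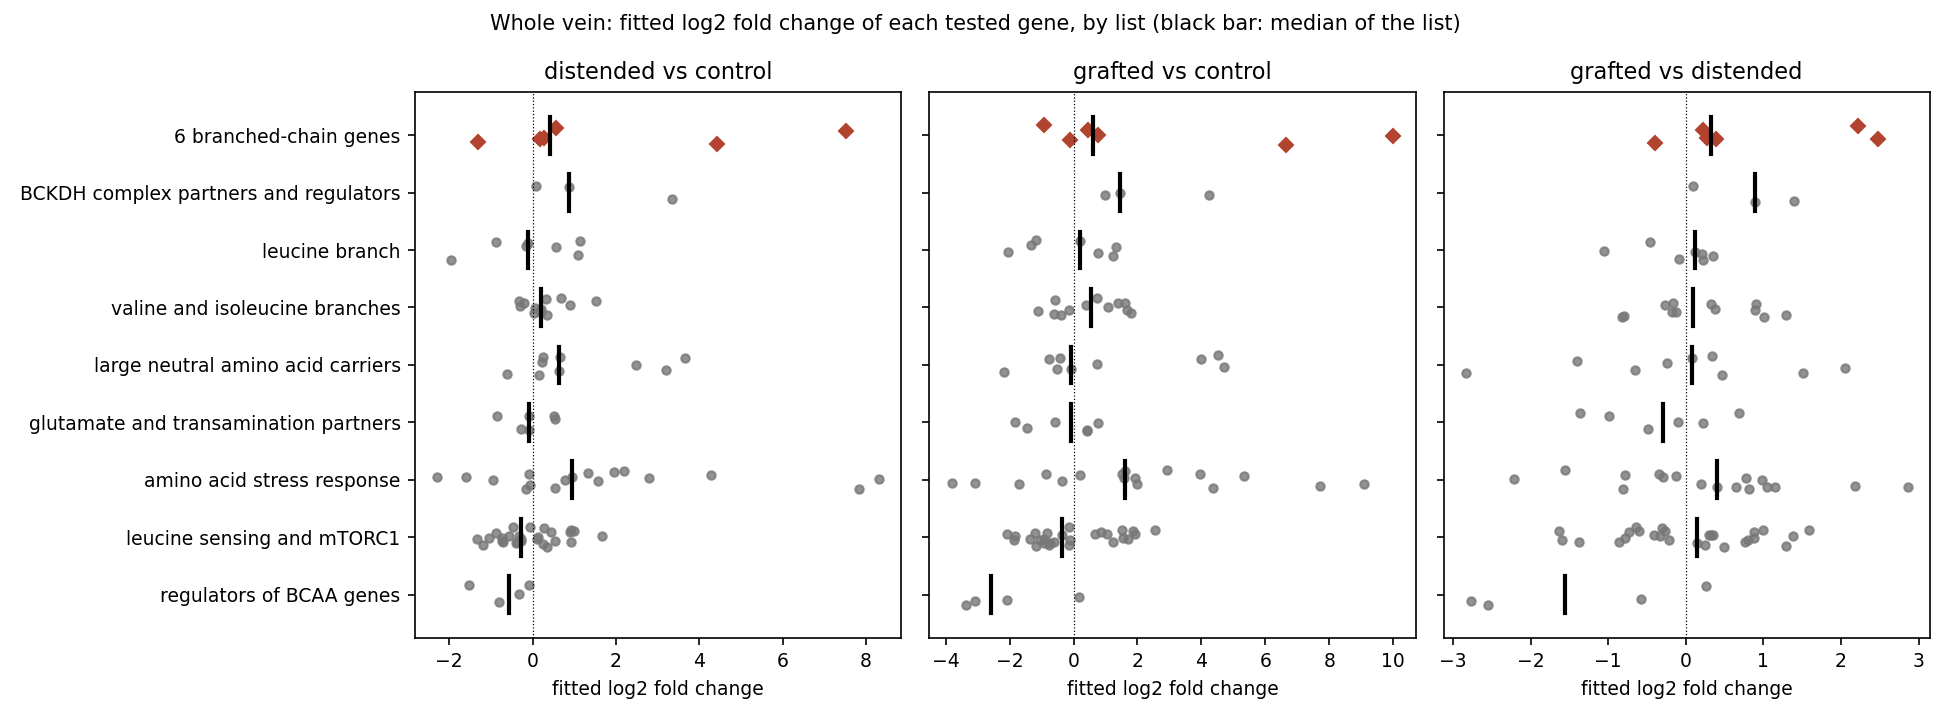
Fitted log2 fold change in whole vein of every tested gene, by list, for distended against control, grafted against control and grafted against distended; each point is a gene, red diamonds are the 6 branched-chain genes and black bars are list medians. In both comparisons with control the 3 highest points (SLC7A5, PSAT1 and TRIB3) are genes with 0 UMIs in the controls, whose fitted values depend on the prior count; BCAT1 and SLC7A5 lie to the right of their own list's median in all 3 panels.

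Leucine sensing and mTORC1 genes, which read leucine at the lysosome, had medians of -0.27 for distended against control and -0.36 for grafted against control, with 12 and 10 of 27 above 0. SAR1B, described as a leucine sensor in human cells, had 19.5 CPM in the graft, 5.97 and 7.19 CPM in the distended libraries, and 9.87 and 11.7 CPM in the controls. Among the 4 regulators of branched-chain genes, MYC, which is known to bind BCAT1 and SLC7A5 in human cells, had 9.95 CPM in the graft, 83.2 and 52.1 CPM in the distended libraries, and 7.68 and 164 CPM in the controls. The 2 controls held the lowest and the highest value of MYC: its log2 fold change for grafted against control was -3.10, and 0.40 without control dog 2. Whether MYC has a part in the levels of BCAT1 and SLC7A5 was not tested. KLF15, a transcription factor that raises branched-chain catabolic genes in mouse muscle and heart, had 1.34 CPM in the graft, 12.3 and 1.80 CPM in the distended libraries, and 21.9 and 5.03 CPM in the controls. PPARGC1A, a coactivator of mitochondrial genes, had 1.98 CPM in the graft, 2.61 and 3.60 CPM in the distended libraries, and 13.2 and 3.36 CPM in the controls.

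Over 19 sums of a library and a class or cluster, the genes whose levels were most like those of BCAT1 were ZSWIM4 (Pearson r = 0.92), SASS6 (0.91), SLC16A1 (0.89), ACTR1B (0.88) and DPM2 (0.87), out of 10160 genes compared. For SLC7A5 they were KCNH1 (0.92), RUNX2 (0.89), SLC43A2 (0.88), AMZ2 (0.87) and ADAMTS4 (0.87). SLC43A2 thus followed SLC7A5 across nuclei groups as well as across libraries. The sums share libraries, depth and the split of the graft from the rest, so these values only describe likeness. Between BCAT1 and SLC7A5 themselves r was 0.60. Of the other branched-chain genes and partners, BCKDK came nearest to BCAT1 (0.69), followed by PPM1K (0.53) and DLD (0.49), while BCAT2 (0.36), DBT (0.22), BCKDHB (0.04) and BCKDHA (0.04) did not follow it.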

How the data were processed

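The deposited matrices hold raw UMI counts that the authors made with Cell Ranger 7.0.0, as stated by the submitters' processing notes and, per the file headers, in the matrices themselves. Neither the genome build nor the use of strand is given in the sources used here. Counts entered every step unchanged. Gene names came from the feature tables, with a numeric suffix removed, and 33471 of 35120 matched a RefSeq gene table. Another 24 features carry no gene assignment, held 0.588% to 11.5% of a library's UMIs and were left out.

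Barcodes with at least 100 detected genes were kept (6855 of 7391). Scrublet marked 41 nuclei (0.598%) as doublets, which were kept. Nuclei were clustered with scanpy 1.11.5 (2000 variable genes, 20 principal components, 15 neighbours, Leiden resolution 0.8, 17 clusters). A class needed at least 3 markers at 2 times the level elsewhere and a marker of its own among the leading 10 genes by Wilcoxon rank. These limits were set after the data had been seen. UMIs were added up within a library, either over its whole set of nuclei or over a class with at least 20 of them. The sums were tested by edgeR's quasi-likelihood method (edgeR 4.0.16, R 4.3.3, two-sided, TMM, filterByExpr, 3 groups in 1 fit, Benjamini-Hochberg threshold 0.05), with DESeq2 1.42.0 as an alternative. The fitting script was tested on simulated data.

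Where a group held 0 UMIs, its fold is a lower bound that sets the group's total at 3 counts, and other ratios carry exact 95% intervals. Shares carry Clopper-Pearson intervals, and a share of 0 is limited by 3 nuclei of the total. Likeness was Pearson's r of log2(CPM + 10).

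The members, the pathway lists and the named-gene rule were chosen with earlier results of these data known. The rule took all members, the partners SLC3A2, DLD, BCKDK and PPM1K, every pathway gene past the test, the 5 genes most like BCAT1 and SLC7A5, and, per whole-vein comparison, the 4 highest and 4 lowest pathway fold changes with at least 50 UMIs. SLC7A11 was named after its values were seen. The labels give distended and control libraries of 1 number to the same dog, so the dog pairs them. The deviations of same-dog libraries from their group means correlated at -0.276 in whole vein and 0.00361 in endothelial-like sums. Sequences and coordinates were not used here.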

Additional observations from a re-analysis of the deposited data

How the results depend on the processing

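BCAT1 kept its direction under all alternatives run in whole vein. Leaving out 1 library at a time, its log2 fold change ranged from 3.28 to 10.62 for distended against control, from 5.52 to 12.86 for grafted against control and from 1.76 to 2.85 for grafted against distended; the highest value in each comparison with control came without control replicate 2, where no control UMI remained. Of the other members' fold changes across the alternatives, 298 moved by less than the spread between replicates and 31 by more. Of the shares of nuclei 77 moved by less and 73 by more, all under other depths of thinning or none.

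Against 0 pathway genes called as reported, leave-one-out counts in whole vein ranged from 0 to 4 for distended against control, 0 to 9 for grafted against control and 0 to 1 for grafted against distended, and without the low-count filter 3 passed for grafted against control. In endothelial-like sums the counts also changed when a distended library was left out, and nothing is read from them. For grafted against control in those sums, the count was 6 without the filter, beside 3.07% of all genes. It was 1 with DESeq2 size factors (SLC43A2), beside 3.32%, and 1 with the DESeq2 test (ATF3), beside 1.98%. It was also 1 with the replicate block (SLC7A11), beside 1.05%, and 1 with the crossed block (DDIT4), beside 2.38%. Why these differ was not tested. Calls over all genes moved as well: in whole vein 219 for distended against control and 649 for grafted against control without distended replicate 1, 375 and 358 for grafted against control and against distended without distended replicate 2, and 286 for grafted against control without the filter. For grafted against control in endothelial-like sums they were 806, 799 and 713 under those 3 settings. A library left alone in its group was assumed to vary like the others.

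With the replicate block, 0 genes of any kind were called in whole vein, and in endothelial-like sums 0, 114 and 0, against 0, 148 and 33 without it; the block changed no other pathway count. Crossing the dog numbers of the distended libraries, chosen after the data were seen, gave 9, 128 and 18 genes in whole vein and 7, 258 and 34 in endothelial-like sums. Without cluster 10 nuclei, also chosen later, 0, 47 and 3 genes passed in whole vein. Removing control replicate 1 or control replicate 2 left 0 calls in endothelial-like sums, and a gene minimum of 200 per nucleus left 64 for grafted against control. With clusters made without the dominant features, grafted comparisons could not be fitted in endothelial-like sums, since too few graft nuclei were in that class.

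Without control replicate 2, ATF3 turned to 2.97 for distended against control (leave-one-out range -2.52 to 2.97) and to 0.79 for grafted against control (-4.69 to 0.79), and MYC to 0.40 for grafted against control (-3.94 to 0.40). Without distended replicate 2, PYCR1 turned to -0.77 for distended against control (-0.77 to 9.35) and PSAT1 gave no value. The cause was not tested. Grafted comparisons in fibroblast-like nuclei could not be fitted with the classes as reported, where the graft held too few; with clusters classed by marker count alone, chosen after the data were seen, 179 of 7392 genes passed for grafted against control and 208 for grafted against distended. Control counts of 0 to 5 UMIs limit BCAT1, SLC7A5, BCAT2 and BCKDK: ratios against them span wide intervals.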

Other observations

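Cluster 12 carried 8 of 14 endothelial markers and 8 of 8 lymphatic endothelial markers, a tie that left it unnamed. It was led by lymphatic endothelial genes such as MMRN1, TBX1 and FLT4. At Leiden resolution 1.5 a cluster led by the same genes was named lymphatic endothelial-like. In distended dog 1, cluster 12 held 8 BCAT1 UMIs in 134 nuclei, or 83.3 class CPM. That was above the 49.4 class CPM of fibroblast-like and the 10.8 class CPM of endothelial-like nuclei of that library. SLC7A5 was at 0 in that cluster. Macrophage/monocyte-like nuclei of distended dog 1 (88 nuclei) held 2 UMIs each of BCAT1, SLC7A5 and BCKDHB.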
